A study of Mus musculus with 16 samples.

Results

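The transcripts of 10 genes of glucose uptake and glycolysis, Slc2a1, Hk1, Hk2, Gpi1, Pfkl, Pfkp, Aldoa, Tpi1, Pgk1 and Ldha, were followed on 16 single-colour arrays of splenic B cells. They were taken by name: every non-control probe that carries 1 of these names on the array was used, which gave 18 probes out of 55681 for 10 genes out of 34832 gene names. The study compared B cells of mice lacking the 3'RR, an enhancer cluster at the end of the immunoglobulin heavy chain locus, with wild-type B cells. B220, a surface protein of B cells, was the handle for the bead purification, and each sample gave 1 array.

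In the deficient samples (strain entry BALBC) the deletion lies, per the labels, on an IgH allele that came from 129 and was bred onto BALBC. The wild-type samples are entered as strain 129, so genotype and strain cannot be told apart. RNA input was 0.2 microgram for all samples, with an RNA integrity (RIN) entry of 9. No age, sex or treatment was given. The arrays lie on 2 slides, each with 4 deficient arrays (labels 9 to 12 on slide 1 and 1 to 4 on slide 2) and 4 wild-type arrays (labels 2, 5, 6 and 8 on slide 1 and 1, 2, 3 and 5 on slide 2). Each slide was scanned on 1 day, so slide, scan day and the mice on it cannot be told apart. The series text names 4 mice per genotype for 8 arrays, and the labels do not tie arrays to single animals. The p-values therefore measure the spread between arrays, which may be partly technical.

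All 8 listed B cell markers, among them Cd79a and Pax5, were well above background on every array. Arrays of 1 group correlated across probes with Pearson's r from 0.980 to 0.996, arrays of both genotypes on 1 slide from 0.968 to 0.985, and arrays of different slides from 0.886 to 0.914. Probes are not independent replicates. Probes well above background numbered 26065 to 29250 per array of slide 1 and 29961 to 34193 per array of slide 2. The number of arrays limits the precision.

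Glycolysis splits glucose into pyruvate in the cytosol and yields ATP without oxygen. Glucose enters through transporters such as Slc2a1 (GLUT1), is trapped by a hexokinase, committed by phosphofructokinase, and reaches pyruvate through a chain of shared enzymes, after which lactate dehydrogenase can regenerate NAD by making lactate. Resting B cells are known to take up little glucose, and activation is known to raise uptake and glycolysis, with Myc and the hypoxia-inducible factor HIF-1 among the known regulators of these genes.

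A level below is the log2 processed signal of a probe minus the 75th percentile of its array, so a level of 1 is a signal of 2 times that percentile. Levels of different probes were not set against each other. A difference is also in log2 units, and its standard error (SE) comes from 1 limma model over the 4 groups, with 4 arrays each. A probe passed the test at a Benjamini-Hochberg adjusted p under 0.05 over 32881 measured probes. All 18 probes were well above background on 16 of 16 arrays and none was saturated.

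What the probes can tell apart depends on their sequence. Aldoa, Hk2, Pfkl, Pgk1 and Slc2a1 had 1 probe, Pfkp and Tpi1 had 2, and Gpi1, Hk1 and Ldha had 3. The array annotation (mm9) placed 16 of the 18 probes on the chromosome of their gene in the RefSeq table of GRCm38.p6. Gpi1 encodes the isomerase that turns glucose 6-phosphate into fructose 6-phosphate, and its 3 probes lie on chr7:34987178-34987237, chr7:34987174-34987233 and chr7:34987173-34987232 (minus strand). They read almost the same bases and are no independent measurements of the gene. The same 30-base stretch of each is shown, with the bases at which the probes differ in capitals, starting at base 6 of the first probe.
A_55_P2022434: tgttgttCtgacctGtatttcacaccccag
A_55_P2030433: tgttgttCtgacctTtatttcacaccccag
A_55_P1992208: tgttgttTtgacctGtatttcacaccccag
Counted from the 5′ end of the first probe, the second differed at G20T in an overlap of 56 bases and the third at C13T in an overlap of 55 bases.

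The Pgk1 probe and 1 of the Hk1 probes were the exceptions to the chromosome check, and the first 30 bases of all probes of these genes are shown because their naming bears on the results.
Pgk1 A_65_P03442: ttcctgtgctcctaagtcaacctagtgttt
Hk1 A_55_P2037398: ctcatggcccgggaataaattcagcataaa
Hk1 A_55_P2027999: ggaatctcccatcgctttagtgagccattg
Hk1 A_55_P2118843: aaggaactgtcaccaaagtgtaccgtgtcc
The Pgk1 probe was annotated at chr3:57906830-57906894, while RefSeq has Pgk1 on chromosome X, and it shared a run of 53 bases with a probe named TC1657415 that was also annotated on chromosome 3. The Hk1 probe A_55_P2037398 was annotated at chr5:22118404-22118463, while the gene lies on chromosome 10. It shared runs of 24 to 38 bases on the same strand with 5 other probes, 1 of them named Rpl17, a ribosomal protein gene. The other Hk1 probes, at chr10:61731856-61731915 and chr10:61732717-61732776, shared no run of 20 bases with any other probe of the array. Which transcripts bound to the Pgk1 probe and to the first Hk1 probe was not tested, and their values are given under the array's names. That Hk1 probe was the brightest of its gene, so it stands for Hk1 wherever genes are counted by their brightest probe.

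**Figure D1:**
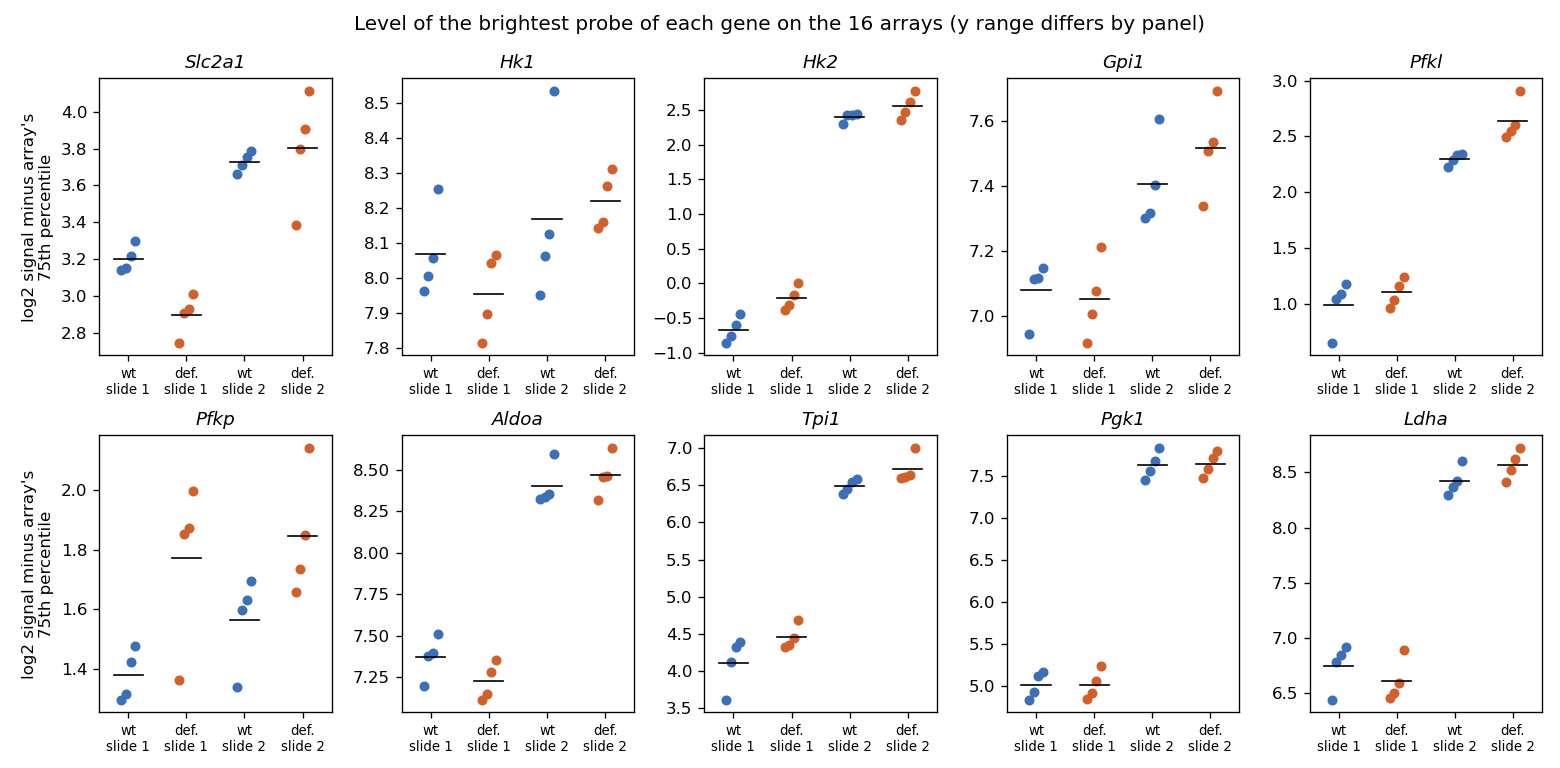
Level of the brightest probe of each gene (log2 signal relative to the 75th percentile of the array) on all 16 arrays, by group: wild type (wt, blue) and deficient (def., orange) on slide 1 and slide 2. Points are arrays, lines are means of 4, and the y range differs between panels. In every panel but those of Hk1 and Pfkp all slide 2 arrays lie above all slide 1 arrays, by most for Hk2, Pgk1, Tpi1 and Ldha. The share of all probes without such an overlap was not counted. Between slides 47.7% of all measured probes were called higher in wild type and 49.0% in deficient cells. The Hk1 panel shows the probe annotated on chromosome 5, which overlaps between the wild-type groups.

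The first comparison is the study's own, deficient against wild-type B cells. Over both slides, Hk2, the inducible hexokinase, and 1 of the 2 probes of Pfkp, the platelet-type phosphofructokinase, were higher in deficient cells, by 0.30 and 0.34. No member probe was lower. The glucose transporter Slc2a1 and the later enzymes Aldoa, Pgk1 and Ldha differed by 0.16 or less on every probe. Among all measured probes 7.58% were called higher and 9.22% lower, so 2 of 18 is a share near the background. The median difference of the 18 probes was 0.11, against -0.03 over all probes. Counted by gene, with the brightest probe, the medians were 0.03 and -0.03. An unadjusted p under 0.05 was found for 4 member probes and for 30% of all probes.

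Hk2 has a single probe, in the late part of its transcript (first base 5416, chr6:82675056-82675115). On slide 1 its levels in deficient arrays 9, 11, 10 and 12 were -0.38, -0.31, 0.001 and -0.17, and in wild-type arrays 2, 5, 6 and 8 they were -0.45, -0.85, -0.60 and -0.75. Every deficient array lay above every wild-type array. On slide 2 the deficient arrays 1 to 4 had 2.47, 2.62, 2.77 and 2.36, and the wild-type arrays 1, 2, 3 and 5 had 2.43, 2.29, 2.43 and 2.44. There the groups overlapped. The difference was 0.45 on slide 1 (SE 0.11, limma adjusted p 0.0124), 0.16 on slide 2 (adjusted p 0.482) and 0.30 over both (SE 0.08, adjusted p 0.0194). The slides' differences did not differ by a test of that difference (-0.29, SE 0.16, adjusted p 0.241). With slide 1 fitted alone the slide 1 call was lost (adjusted p 0.0683), and with slide as a random block so was the call over both slides (adjusted p 0.236).

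Hk1, the housekeeping hexokinase, gave no call on any of its 3 probes. The probe at base 3844, on the gene's own chromosome, had levels of 4.06, 3.87, 4.03 and 4.09 in deficient and 3.90, 3.88, 3.99 and 4.06 in wild-type arrays of slide 1, and 4.15, 4.26, 4.29 and 4.07 against 3.87, 3.98, 4.05 and 4.33 on slide 2. Both pairs of groups overlapped. Its difference over both slides was 0.09 (SE 0.07), that of the probe at base 2983 was 0.13 (SE 0.07), and that of the probe annotated on chromosome 5 was -0.03 (SE 0.08).

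Pfkp and Pfkl encode the platelet and liver isoforms of phosphofructokinase, the enzyme of the committed step. The Pfkp probe at base 2138 spans a splice junction (chr13:6581718-6583872 for 60 bases) and had 1.87, 1.36, 2.00 and 1.85 in deficient arrays 9, 11, 10 and 12 of slide 1 against 1.42, 1.48, 1.32 and 1.30 in wild-type arrays. Deficient array 11 was the exception, level with the wild type. On slide 2 it had 1.73, 1.85, 2.14 and 1.66 in deficient and 1.60, 1.70, 1.63 and 1.34 in wild-type arrays, with an overlap by deficient array 4 and wild-type array 2. Over both slides the difference was 0.34 (SE 0.10, limma adjusted p 0.0305). Slide 1 alone gave 0.39 (adjusted p 0.0544) and slide 2 gave 0.28 (adjusted p 0.266). Without deficient array 11 the slide 1 value was 0.53 (adjusted p 0.00766). The call over both slides was lost without deficient arrays 9, 10 or 12 or wild-type arrays 6 or 8 of slide 1, without deficient arrays 2 or 3 or wild-type arrays 1 or 5 of slide 2, each left out on its own (adjusted p 0.0512 to 0.0584), and with no filter on dim probes (0.0628). The other Pfkp probe, near the end of the transcript at base 3922, differed by 0.24 (SE 0.17, adjusted p 0.378).

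Pfkl did not pass over both slides (0.23, SE 0.08, adjusted p 0.0811). On slide 2 its levels were 2.55, 2.50, 2.91 and 2.60 in deficient arrays and 2.23, 2.34, 2.29 and 2.34 in wild-type arrays, which did not overlap. The slide 2 difference was 0.34 (SE 0.12) and missed the threshold at limma adjusted p 0.102. Once wild-type array 2 of slide 1 was left out it stayed at 0.34 and passed (adjusted p 0.0442), as the slides share 1 estimate of the spread. On slide 1 the groups overlapped, with 1.03, 0.97, 1.16 and 1.24 against 0.65, 1.08, 1.04 and 1.18.

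Slc2a1, the glucose transporter, was the member with the lowest value on slide 1, where deficient arrays 9, 11, 10 and 12 had 2.93, 2.91, 2.75 and 3.01 and wild-type arrays had 3.14, 3.15, 3.30 and 3.22. The groups did not overlap, and the difference of -0.30 (SE 0.12) missed the threshold at adjusted p 0.0842. On slide 2 the deficient arrays 1 to 4 had 3.90, 3.80, 4.11 and 3.39 and the wild-type arrays had 3.76, 3.71, 3.66 and 3.79. Deficient array 4 alone lay below all wild-type arrays, and the difference was 0.07 (SE 0.12, adjusted p 0.805). When that array was left out, the slide 1 difference stayed at -0.30 and passed (limma adjusted p 0.0226), as the 4 groups share 1 estimate of the spread. The slides' differences then differed by 0.51 (adjusted p 0.0214), against 0.38 with all arrays (adjusted p 0.159).

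The enzymes after the committed step were called in no genotype comparison. Tpi1, triose phosphate isomerase, came nearest, with 0.28 over both slides on the probe at base 1204 (SE 0.11, limma adjusted p 0.0964) and 0.16 on the probe at base 634 (SE 0.09). It passed over both slides in the authors' deposited value table (0.30, adjusted p 0.0366). Aldoa, the aldolase of most tissues, differed by -0.04 (SE 0.07), and Pgk1, phosphoglycerate kinase, by 0.01 (SE 0.08). The 3 probes of Ldha, lactate dehydrogenase A, gave 0.16 (SE 0.10), 0.11 (SE 0.07) and 0.01 (SE 0.09) from the first to the last along the transcript, and those of Gpi1, which acts before that step, gave 0.04 to 0.12.

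On slide 1 Hk2 was the single call (joined by Pfkp at base 2138 and Tpi1 at base 1204 with quantile normalization and in the authors' deposited value table), where 9.18% of all probes were called higher and 14.1% lower. On slide 2 none of the 18 passed by limma, where 7.46% of all probes were called, and 3 had an unadjusted p under 0.05, against 21.3% of all probes. All 18 fitted differences on slide 2 were above 0, with a median of 0.17, and 52.1% of all probes were. Probes of 1 gene share their source, and counted by gene these were 10 of 10. With quantile normalization 14 of the 18 were above 0. Deficient array 3 of slide 2 was the highest of the 8 arrays for 14 of the 18 probes. With array weights, which called 14.1% of all probes higher and 11% lower on slide 2, 6 member probes passed there, all higher: the Pfkl probe, 2 of the 3 Hk1 probes, 2 of the 3 Gpi1 probes and the Ldha probe at base 351. No member probe passed the test of a difference between the slides, against 13.9% of all probes, and 1 had an unadjusted p under 0.05, against 29.8%.

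**Figure D2:**
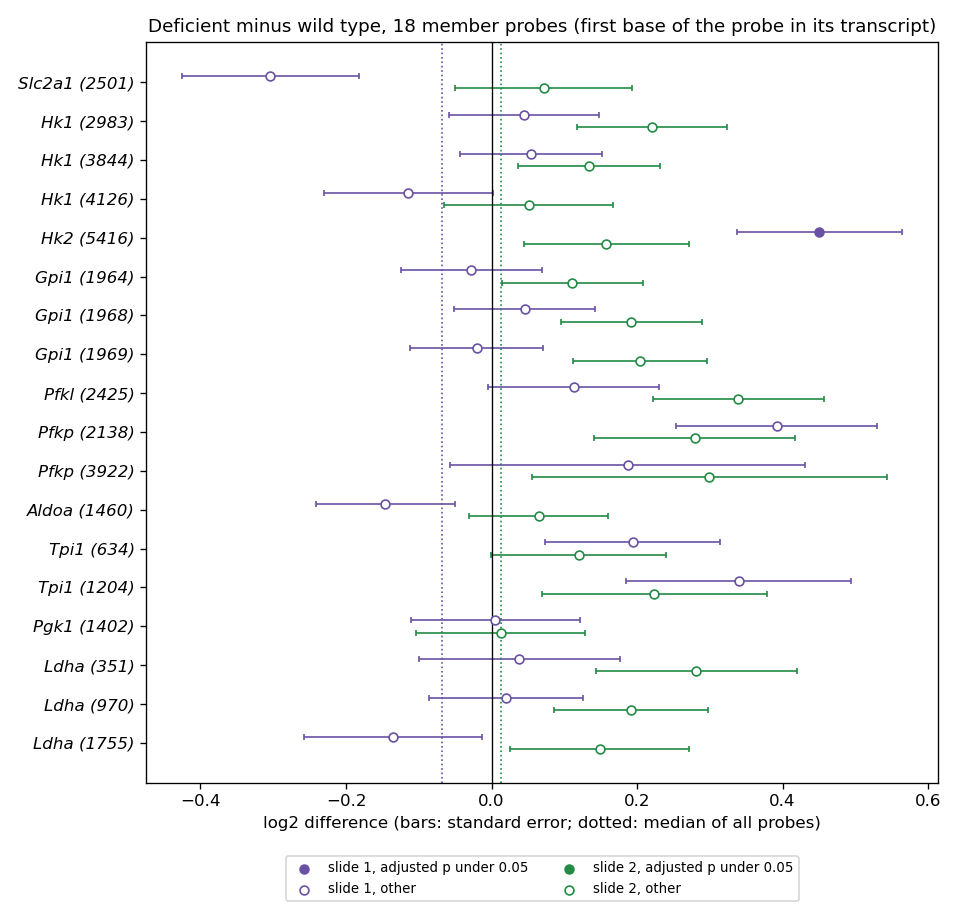
Difference between deficient and wild-type arrays (log2, x axis) for the 18 probes on slide 1 (purple) and slide 2 (green), with the probe's first base in its transcript in brackets. Bars are standard errors of the fit with 4 arrays per group, filled points passed the test and dotted lines are medians of all probes; Hk2 on slide 1, at 0.45, is the filled point.

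Markers of other cells moved with genotype in parts. For comparison, 7.44% of all measured genes were called higher over both slides and 9.65% lower. Of all measured probes 9.18% were called higher and 14.1% lower on slide 1, and 3.65% and 3.82% on slide 2. Of 7 measured genes of dividing cells, 4 were higher over both slides and 5 on slide 1 (median 0.85), where the mean level of the list ranged between 1.24 and 2.51 in deficient and between 0.87 and 1.62 in wild-type arrays. On slide 2 none passed by limma, with 4.90 to 5.08 against 4.74 to 4.86. Of 8 erythroid markers 3 were higher in deficient cells of slide 2, the globin genes Hba-a1, Hbb-b1 and Hbb-b2, and the others were not called, with Slc4a1, Klf1 and Gata1 at -0.29, -0.15 and -0.35. The mean level of the list was -3.72 to -1.94 in deficient and -5.58 to -5.36 in wild-type arrays. Both globin beta genes were well above background on 4 of 4 deficient arrays and on 0 of 4 wild-type arrays of that slide. No macrophage or neutrophil marker was called between genotypes by limma on either slide. Of the T cell markers 3 of 8 were higher on slide 2, of the B cell markers 2 of 8 were lower on slide 1 and 1 higher on slide 2, and of the plasma cell markers 1 of 4 was higher on slide 1 and 2 lower on slide 2. The part of these in the Hk2 and Pfkp results and in the slide 2 values was not tested. In a bulk sample, fewer cells of a type and less RNA per cell cannot be told apart.

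Other genes of glucose metabolism were called in both directions between genotypes. Over both slides 7.44% of all measured genes were called higher and 9.65% lower. Of 15 other measured enzymes of glycolysis, 3 rose and 2 fell, and their median was 0.12 against -0.03 over all genes. Pkm, the pyruvate kinase of most tissues, rose by 0.55 (limma adjusted p 0.00805). It gave 0.40 on slide 1 (adjusted p 0.115) and 0.71 on slide 2 (adjusted p 0.0251). Ldhb, the lactate dehydrogenase subunit of oxidative tissues, fell by 0.91 (adjusted p 0.00143). Its values were -0.32 on slide 1 (adjusted p 0.316) and -1.51 on slide 2, where 3 of 4 deficient arrays were well above background. Pfkm, the muscle phosphofructokinase, fell by 0.45 (adjusted p 0.0209) and Eno2, the neuronal enolase, was higher by 0.39 (adjusted p 0.0203). On slide 1 they gave -0.62 and 0.73 (limma adjusted p 0.0202 and 0.0038). On slide 2 neither was called, at -0.29 and 0.06 (adjusted p 0.374 and 0.881).

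Of 8 other glucose and lactate transporters, 1 was higher and 2 lower. Slc2a6 was higher by 0.46 (limma adjusted p 0.00729), with 0.64 on slide 1 (adjusted p 0.00631) and 0.28 on slide 2 (adjusted p 0.293). Slc2a8 was lower (-0.26, adjusted p 0.0164), with no call on slide 1 (-0.23) or slide 2 (-0.28) by itself. Slc2a4, the insulin-responsive transporter, was called lower as well (-0.50, adjusted p 0.00566), and was not well above background on any slide 1 array. Of 17 regulators, Pfkfb1, which makes and breaks down the phosphofructokinase activator fructose 2,6-bisphosphate, was the 1 called, with a rise of 0.50 (adjusted p 0.000438). Of 13 hypoxia targets outside glycolysis, P4ha1, a collagen prolyl hydroxylase subunit, fell by 0.54 (adjusted p 0.000724). Of 7 pentose phosphate enzymes, Rpe and Rpia, which interconvert pentose phosphates, fell by 0.26 and 0.19 over both slides (adjusted p 0.002 and 0.0114). On slide 1 they gave -0.47 and -0.30 (limma adjusted p 0.000326 and 0.00527). On slide 2 neither was called, at -0.04 and -0.08 (adjusted p 0.778 and 0.52).

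The second comparison is between the slides within each genotype. Hk2, Pgk1, Tpi1 and Ldha rose most on slide 2, and Slc2a1, Gpi1 and Hk1 differed less. In wild-type cells Hk2 was 8.35-fold higher, Pgk1 6.16-fold, the Tpi1 probes 4.09- and 5.19-fold and the Ldha probes 3.19- to 5.30-fold, while Hk1 differed by 1.01- to 1.07-fold on its 3 probes. In deficient cells the same probes gave 6.81-fold for Hk2, 6.20-fold for Pgk1, 3.88- and 4.79-fold for Tpi1 and 3.88- to 6.28-fold for Ldha. In each genotype 14 of 18 probes were higher and 0 lower, where 47.7% of all measured probes were higher in wild type and 49.0% in deficient cells. The 14 were probes of 9 of the 10 genes, or of 8 counted by the brightest probe. The 3 Hk1 probes and the brightest Pfkp probe were not called. With arrays scaled by their median, 3 Hk1 probes were lower in wild type and the Gpi1 probes and Slc2a1 lost their call there, as did the brightest Gpi1 probe in deficient cells. With quantile normalization the 3 Gpi1 probes lost their call in both genotypes and 2 Hk1 probes were lower in deficient cells.

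Much of the transcriptome differed between slides as well. Of all measured probes 47.7% were called higher and 25.3% lower in wild type, and 49.0% and 25.6% in deficient cells, with median differences of 0.35 and 0.39. The medians of the 18 probes were 1.03 and 1.19. A rise of at least 1 on the log2 scale past the threshold was found for 10 of 18 in each genotype, against 27.4% and 28.5% of all probes. The medians of all probes moved to -0.03 and 0.10 with median scaling, where those of the member probes were 0.65 and 0.90, and to 0.16 and 0.17 with quantile normalization, with 0.83 and 0.91 for the members. The genotypes' slide comparisons use separate arrays of the same slides.

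The steps differed from each other along the pathway. At uptake, Slc2a1 rose by 0.53 in wild type (SE 0.12, limma adjusted p 0.00129; 0.15 and not called with median scaling) and by 0.90 in deficient cells (adjusted p 1e-05). All 8 slide 2 arrays lay above all 8 slide 1 arrays, whose highest was 3.30 against a lowest of 3.39.

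At the trapping step the hexokinases parted. Hk2 rose from -0.66 ± 0.18 to 2.40 ± 0.07 in wild type and from -0.21 ± 0.17 to 2.56 ± 0.18 in deficient cells (mean ± SD, n = 4), a difference of 3.06 and 2.77 (SE 0.11 each, limma adjusted p 3.25e-11 and 5.92e-11). In wild type 2.47% of all measured probes had a larger difference. For Hk1 the probe at base 3844 had 3.96 ± 0.08 and 4.06 ± 0.20 in wild type and 4.01 ± 0.10 and 4.19 ± 0.10 in deficient cells on slides 1 and 2. Its differences of 0.10 and 0.18 (SE 0.10 each) lay below the median of all probes. The Hk1 probe annotated on chromosome 5 gave 0.10 and 0.26, where the deficient groups did not overlap and the adjusted p was 0.0526. In deficient cells that probe was called higher with normexp background (adjusted p 0.0331), array weights (0.02), the filter on all arrays (0.0428) and 1 probe per gene (0.0497), and without deficient array 10 or wild-type array 5 of slide 1 or wild-type arrays 3 or 5 of slide 2 (0.0128 to 0.0477). Its relative named Rpl17 gave 0.11 and 0.34 (SE 0.11 each). Without wild-type array 5 of slide 2 the probe at base 3844 was called higher in deficient cells too (limma adjusted p 0.0483). Leaving out a wild-type array changed the shared spread and not these differences of 0.26 and 0.18. With quantile normalization both probes were called lower on slide 2 in deficient cells. The values were -0.17 (limma adjusted p 0.0478) for the probe annotated on chromosome 5 and -0.25 (adjusted p 0.0193) for the probe at base 3844.

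Gpi1 rose little, by 0.32 to 0.52 in wild type and 0.46 to 0.67 in deficient cells across its overlapping probes, near the median of all probes, and these calls were lost under quantile normalization. At the committed step, Pfkl rose from 0.99 ± 0.23 to 2.30 ± 0.05 in wild type and from 1.10 ± 0.13 to 2.64 ± 0.18 in deficient cells (mean ± SD, n = 4), by 1.31 and 1.54 (SE 0.12 each). The probes of Pfkp disagreed. The junction probe at base 2138 gave 0.19 and 0.07 (SE 0.14 each, not called), and the probe at base 3922, toward the transcript's end, rose by 1.02 and 1.14 (SE 0.24 each, limma adjusted p 0.00167 and 0.000726). On that probe the slide 1 arrays ran from -3.77 to -2.67 and the slide 2 arrays from -3.02 to -1.94, with no overlap within a genotype.

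Aldoa rose by 1.03 and 1.24 (SE 0.10 each), with slide 1 arrays between 7.11 and 7.51 and slide 2 arrays between 8.32 and 8.63. Tpi1 rose on both probes, by 2.38 and 2.26 at base 1204 and by 2.03 and 1.96 at base 634. The latter probe shared a run of 36 bases, on the opposite strand, with a probe named by its coordinates on chromosome 6. That probe rose by 2.25 and 2.05. For Pgk1, slide 1 arrays had 4.83, 4.92, 5.16 and 5.12 in wild type and 4.84, 4.92, 5.24 and 5.06 in deficient cells, and slide 2 arrays 7.68, 7.56, 7.45 and 7.84 and 7.72, 7.59, 7.80 and 7.48. All slide 2 arrays lay above all slide 1 arrays by more than the spread of either. The differences were 2.62 and 2.63 (SE 0.12 each, limma adjusted p 1.44e-10 and 1.09e-10), and the related probe TC1657415 rose by 2.72 and 2.81.

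Ldha had 3 probes along its transcript, at chr7:54103010-54103069, chr7:54107294-54107353 and chr7:54110937-54110996, and their first 30 bases are shown because they lie in separate places of it.
Ldha base 351: gctgattgtgaatcttcttaaggaagagca
Ldha base 970: cttaacccagaactgggcactgacgcagac
Ldha base 1755: tgcatatggatgatggaaccaaccacccaa
They rose by 2.41, 2.10 and 1.67 in wild type and by 2.65, 2.28 and 1.96 in deficient cells, with SEs from 0.11 to 0.14. The size of the rise fell from the first to the last probe in both genotypes, while the level of the last probe was 6.75 ± 0.21 on slide 1 and 8.42 ± 0.13 on slide 2 in wild type (mean ± SD, n = 4). A run of 33 bases of the probe at base 1755 was shared with an unnamed probe annotated on chromosome 4, which rose by 1.67 and 1.86.

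**Figure D3:**
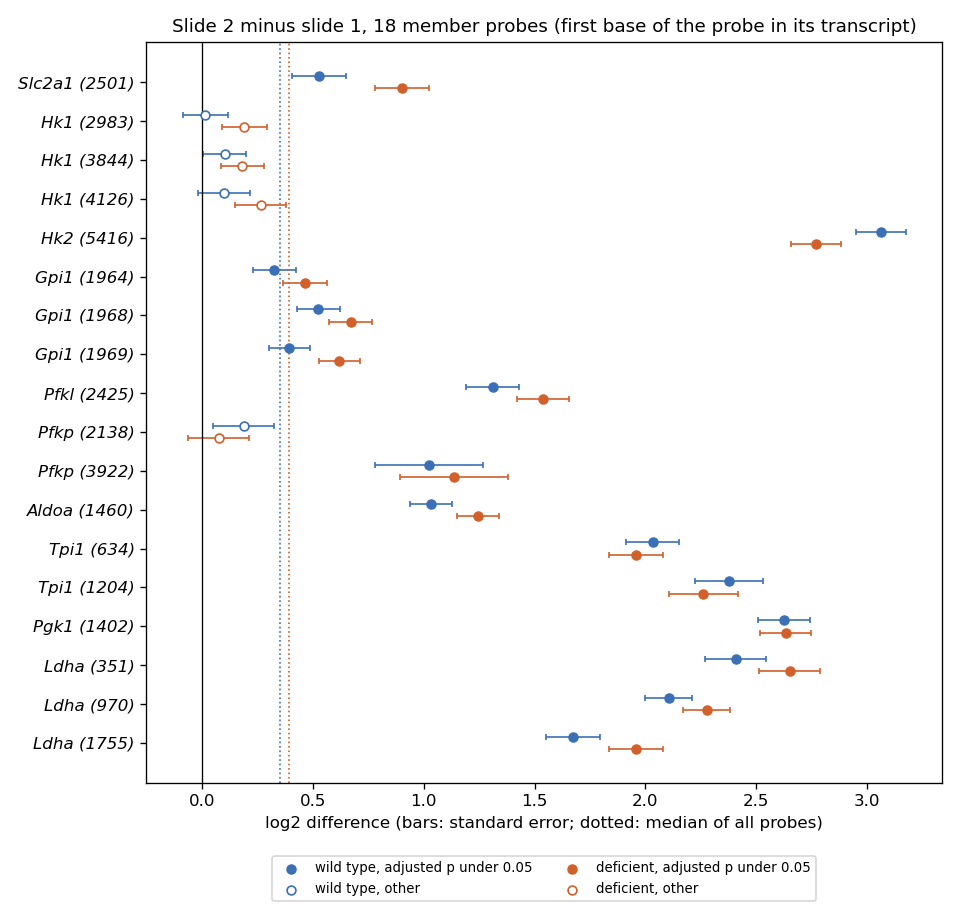
Difference between slide 2 and slide 1 (log2, x axis) for the 18 probes in wild-type (blue) and deficient (orange) arrays, with the probe's first base in its transcript in brackets. Bars are standard errors of the fit with 4 arrays per group, filled points passed the test and dotted lines are the medians of all probes at 0.35 and 0.39; the Hk1 probes, the first Pfkp probe and, in wild type, 1 Gpi1 probe at 0.32 lie left of these lines, and Hk2 lies farthest right.

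Genes around the pathway did not all move the same way between slides. Among all measured genes 48.5% were called higher and 25.2% lower in wild type, and 50.4% and 25.5% in deficient cells. Of 15 other enzymes of glycolysis, 7 were higher and 5 lower in wild type and 9 and 5 in deficient cells. Of 8 other transporters, 4 were higher and 4 lower, and 4 and 3. Of 17 regulators, 6 were higher and 8 lower, and 7 and 6. Pentose phosphate enzymes had 5 higher and 1 lower, and 6 and 0, of 7. Targets of the hypoxia-inducible factor outside glycolysis had 10 higher and 1 lower, and 11 and 1, of 13, with medians of 1.49 and 1.62 against 0.35 and 0.40 over all genes.

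Some of these genes are given with values, chosen after the values were seen. Eno2 rose by 4.93 and 4.26 in wild-type and deficient cells, Pgam1, a phosphoglycerate mutase, by 2.20 and 2.40, and Slc16a3, a lactate exporter, by 5.36 and 4.24. Slc2a3, a high-affinity glucose transporter, fell by 1.06 and 0.54, and Hk3, a hexokinase of myeloid cells, fell by 4.12 and 4.58, with 2 and 0 of 4 slide 2 arrays well above background. Among the hypoxia targets Vegfa, an angiogenic factor, rose by 5.52 and 4.97 (3 of 4 wild-type arrays of slide 1 well above background) and Bnip3, a mitophagy receptor, by 2.59 and 3.12. Of the regulators, Hif1a fell by 1.35 and 1.23, and Myc differed by 0.01 in wild type and rose by 1.00 in deficient cells.

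Markers of other cells and of division moved with the slides too. For comparison, 48.5% of all measured genes were called higher and 25.2% lower in wild type, and 50.4% and 25.5% in deficient cells. All 7 measured genes of dividing cells were higher on slide 2 in both genotypes (medians 3.64 and 2.97), and the highest mean level of the list on slide 1 was 2.51, against a lowest of 4.74 on slide 2. Macrophage markers fell, 7 and 8 of 8 (medians -5.53 and -5.44), with mean levels of 2.26 to 3.39 on slide 1 and of -3.29 to -2.96 on slide 2, where C1qa, C1qc and Vcam1 were not well above background on any array. Neutrophil markers fell for 5 and 6 of 7, while Elane rose by 1.31 and 0.86, and S100a8, S100a9 and Ngp were not well above background on any slide 2 array. Erythroid markers fell for 5 and 6 of 8, and T cell markers for 6 of 8 in each genotype, while Thy1, also a T cell marker, rose by 4.70 and 4.67. Of 4 plasma cell markers 2 rose and 1 fell in wild type, and 1 rose and 2 fell in deficient cells. The B cell markers fell for 6 of 8 in each genotype (medians -1.05 and -1.02), while Ms4a1 rose by 0.38 in deficient cells, with mean levels of 5.06 to 5.33 on slide 1 and 3.87 to 4.30 on slide 2. The part of these markers, and of depth and scan, in the glycolysis values was not tested.

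**Figure D4:**
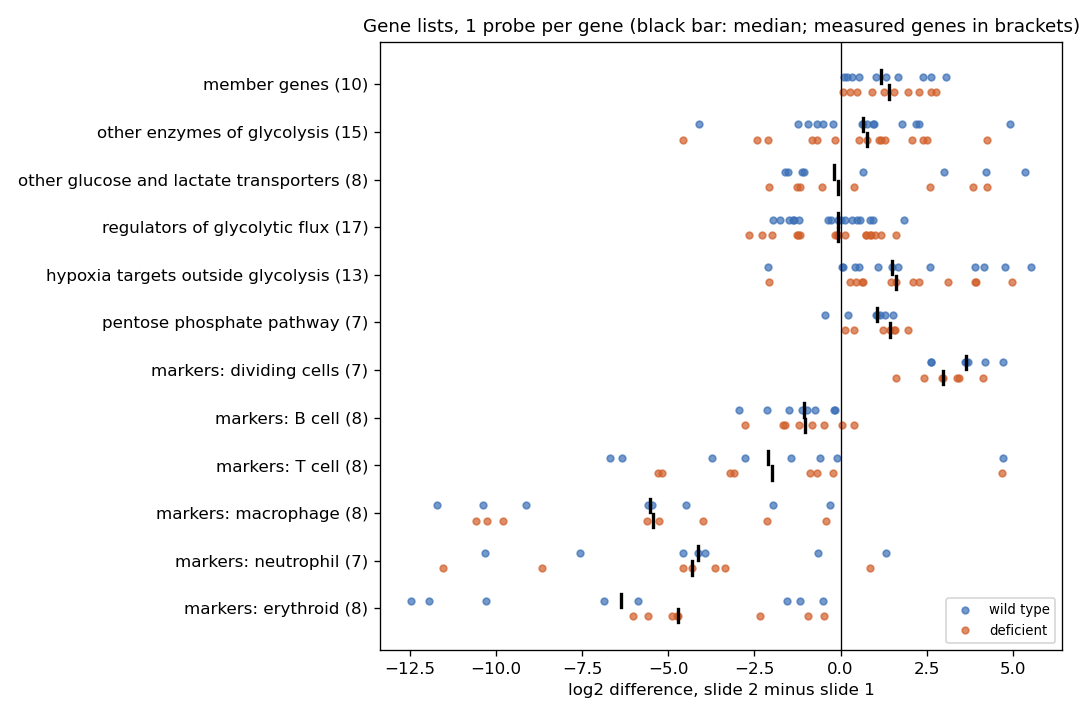
Difference between slide 2 and slide 1 (log2, x axis) of each measured gene, 1 probe per gene, in wild-type (blue) and deficient (orange) arrays, for the 10 genes, 5 lists around glycolysis and 6 marker lists. Black bars are medians; those of the 10 genes stand at 1.17 and 1.39, those of dividing cells at 3.64 and 2.97 and those of macrophages at -5.53 and -5.44.

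With each probe centred on its own mean, the mean profile of the 10 genes over the 16 arrays was nearest for Pfkl and Aldoa (root mean square distances of 0.12 and 0.15) and farthest for Hk2 and Pfkp (0.80 and 0.65). Each of the 10 is part of that mean, by its brightest probe, and genes outside are not, so the distances of the 10 and of other genes are not alike. Outside the 10, the nearest of 22725 genes were an unnamed transcript (NAP017915-001, 0.07), Tmem167 and Cyb5b (0.09 each), against a median of 0.68. Tmem167 encodes a small membrane protein and Cyb5b the cytochrome b5 of the outer mitochondrial membrane. Their slide differences were 1.39 and 1.46, and 1.33 and 1.39, in wild-type and deficient cells.

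The start regions of these genes are shown for the 4 genes that rose most between slides and for Hk1, which was not called in the fit of all arrays. RefSeq (GRCm38.p6) gave 14 promoters for the 10 genes, each from 250 bases before to 50 after a transcript start. Letters searched on both strands were the E box CACGTG, bound by Myc among others, the cores ACGTG and GCGTG of the hypoxia response element (ACGTG lies within CACGTG), the GC box GGGCGG and the TATA box TATAAA. In the sequences the E boxes and hypoxia response cores, on either strand, are in capitals.
Ldha, chr7:46845554-46845853, plus strand: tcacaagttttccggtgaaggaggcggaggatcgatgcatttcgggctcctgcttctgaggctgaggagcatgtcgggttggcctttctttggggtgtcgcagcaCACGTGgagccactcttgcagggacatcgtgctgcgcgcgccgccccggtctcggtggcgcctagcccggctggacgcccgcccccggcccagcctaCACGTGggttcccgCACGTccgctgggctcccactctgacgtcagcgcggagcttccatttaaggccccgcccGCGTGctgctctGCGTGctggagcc
Pgk1, chrX:106186850-106187149, plus strand: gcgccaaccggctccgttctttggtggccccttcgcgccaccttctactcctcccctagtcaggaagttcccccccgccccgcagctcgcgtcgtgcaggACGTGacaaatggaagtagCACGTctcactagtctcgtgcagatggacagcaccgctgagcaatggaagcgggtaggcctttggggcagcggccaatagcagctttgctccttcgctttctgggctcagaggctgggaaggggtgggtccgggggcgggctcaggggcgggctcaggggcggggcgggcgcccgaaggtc
Hk2, chr6:82774405-82774704, minus strand: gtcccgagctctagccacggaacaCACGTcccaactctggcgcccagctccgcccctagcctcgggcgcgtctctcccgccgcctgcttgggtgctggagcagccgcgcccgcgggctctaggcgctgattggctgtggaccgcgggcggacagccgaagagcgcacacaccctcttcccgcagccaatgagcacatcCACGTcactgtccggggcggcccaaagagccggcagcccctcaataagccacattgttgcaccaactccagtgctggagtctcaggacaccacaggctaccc
Tpi1, chr6:124814109-124814408, minus strand: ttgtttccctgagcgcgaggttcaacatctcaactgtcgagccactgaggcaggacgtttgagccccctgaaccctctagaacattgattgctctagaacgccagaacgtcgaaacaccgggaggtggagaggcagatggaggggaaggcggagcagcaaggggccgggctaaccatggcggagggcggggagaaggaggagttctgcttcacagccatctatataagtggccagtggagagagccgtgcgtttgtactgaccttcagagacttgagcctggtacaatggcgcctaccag
Hk1, chr10:62340372-62340671, minus strand: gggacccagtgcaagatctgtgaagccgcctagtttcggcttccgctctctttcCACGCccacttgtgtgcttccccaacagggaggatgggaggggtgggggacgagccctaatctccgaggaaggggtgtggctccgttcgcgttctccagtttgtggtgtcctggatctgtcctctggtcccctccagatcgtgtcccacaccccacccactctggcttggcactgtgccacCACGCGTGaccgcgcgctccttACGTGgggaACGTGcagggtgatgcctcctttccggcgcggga

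The E box was found in 1 of the 14 promoters, against 7.15% of 32851 promoters of 300 bases, a share near the background. That promoter was of Ldha, with the E box at positions -145 and -48 from its first start. ACGTG was found in 7 of the 14 promoters, of 6 genes, against 19.6% of all promoters, and GCGTG in 6 of 14, of 5 genes, against 32.4%. The Pgk1 promoter held ACGTG at -150 and -131 and the Hk2 promoter at -226 and -52. The second Hk1 promoter held both cores, 5 matches in all, and the promoters of Tpi1 and Gpi1 held neither. GGGCGG was found in 10 of 14 promoters, of every gene but Hk1, against 35.7%, and TATAAA in 1, that of Slc2a1, against 13.6%. The Aldoa promoters at chr7:126799205-126799504 and chr7:126799129-126799428 overlap, and their ACGTG and GGGCGG matches are the same bases counted in both. A match is a run of letters and not a bound site.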

How the data were processed

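Each array's spot intensities are the authors' deposited scanner output, written by Agilent's Feature Extraction software (10.7.3.1) and, per the file headers, background-subtracted and detrended within arrays but not normalized between them. A table of log2 values was also deposited by the authors; its column medians were 5.58 to 5.60 on slide 1 and 6.49 to 6.50 on slide 2, which differ by slide. Its background handling and centring are unknown, and it served only within slides. The submitters' processing notes name limma for slide 2, with no version or role. Here log2 of the processed intensity minus the array's 75th percentile over non-control spots was used. Spots flagged as outliers were left out, repeated spots averaged, and a probe counted as measured if well above background on at least 4 arrays, which kept 32881 probes of 22735 genes.

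Limma (3.58.1, R 4.3.3) fitted 1 mean per group of genotype and slide, with Benjamini-Hochberg adjustment over all measured probes. The script was tested on simulated data. The brightest probe stood for a gene in lists. All members are named, and from each list up to 4 of those that passed over both slides with 1 sign on each, by size. The 3 genes nearest to the members' mean profile are named too. The members, lists and rules were chosen with earlier results of these data known. On slide 2 genotypes share label numbers 1, 2 and 3. Deviations of same-numbered arrays correlated by 0.01 to 0.10 across probes, and those of differently numbered arrays were not set beside them. The numbers were not taken as pairs, and whether they pair arrays is not known. Alternatives covered background correction, scaling, filtering, probe choice, weights, slide blocks, the authors' table and leaving out each array.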

Additional observations from a re-analysis of the deposited data

Results flagged for a closer look

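In 7 of 72 groups of 4 arrays, 1 array of a member probe stood apart from the other 3 by Dixon's ratio, a rule by which chance flags about 1 in 20 groups. Wild-type array 2 of slide 1 was the lowest for 2 of the overlapping Gpi1 probes, at 6.67 and 6.95, and for the Ldha probe at base 351, at 0.61. Wild-type array 2 of slide 2 was the lowest for Hk2, at 2.29. Wild-type array 5 of slide 2 was the highest for Aldoa, at 8.59, and the lowest for the Ldha probe at base 970, at 5.65. Deficient array 3 of slide 2 was the highest for the Tpi1 probe at base 1204, at 7.00.

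No member's genotype difference differed between slides past the threshold. Among the other genes of glucose metabolism named by the rule, that of Ldhb was lower on slide 2 by 1.19 (difference -1.19, limma adjusted p 0.0246), that of Eno2 lower by 0.67 (-0.67, adjusted p 0.0484) and that of Rpe higher by 0.43 (adjusted p 0.0107).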

How the results depend on the processing

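The count of 2 probes higher over both slides became 1 with no filter on dim probes, 1 when slide was a random block, 3 in the authors' value table, where Tpi1 was added, and 1 to 2 with an array left out. The slide 1 count of 1 became 3 with quantile normalization and with the authors' value table (Hk2, Pfkp and Tpi1 in both), 2 with probes well above background on all arrays, 0 with slide 1 fitted alone, and 1 to 2 with an array left out. The slide 2 count of 0 became 6 with array weights and 0 to 1 with an array left out. It was 0 with the replicate block on label numbers of slide 2, which were not taken as pairs in the main fit. The count of 0 for the difference between slides became 0 to 1 with an array left out. With 1 probe per gene, 8 probes were higher on slide 2 in wild type and 9 in deficient cells, where 10 probes are tested in place of 18. The brightest Gpi1 probe turned sign between slides in wild type with median scaling (-0.055) and quantile normalization (-0.045), and in deficient cells with quantile normalization (-0.093); none of these passed. For 27 results, 653 values of the brightest probes were recomputed under an alternative. Of these, 635 kept the call or its absence, 14 lost the call, 1 gained it and 3 turned from a called value to the other sign. A change of sign with no call in either fit was counted as kept, as for Hk1 over both slides (-0.07 to 0.03). Over all probes, the share of higher calls over both slides was 45.1% at the 75th percentile and 59.8% with median scaling, and 65.4% and 47.4% for slide 2 against slide 1 in wild type. All member probes were well above background.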

Other observations

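Myc, which encodes a transcription factor known to act on many glycolysis genes, was chosen here after its values were seen. It was lower in deficient cells on slide 1 (-0.89, limma adjusted p 0.00784) and not called on slide 2 (0.10, adjusted p 0.844), and the slides' differences differed by 1.00 (adjusted p 0.0379). Slc16a3, the lactate exporter, was higher in deficient cells on slide 1 by 1.22 (adjusted p 0.019) and Slc2a3 lower (-0.56, adjusted p 0.0324), with no call for either on slide 2 and no called difference between slides (adjusted p 0.129 and 0.17).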
